A study of Mus musculus with 24 samples.

Results

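Genes that lie beside Notch2 on mouse chromosome 3 were compared between hippocampal cells of Notch2 conditional knockout (CKO) mice and wild-type (WT) mice. The set held 43 genes out of 48321 symbols in the count tables, listed by symbol as genes within about 5 Mb of Notch2, and 41 of them passed the filter on low counts. The list had been chosen by position but with earlier results of these data known, and some members had been selected on their fold change and p in the comparison of genotypes. Differences between genotypes in these 43 genes are therefore given as a description. Where p-values from the fit over all genes are counted among them, the counts reuse the values behind the choice and are no test of these genes. All 43 were annotated on chromosome 3 and lay at most 4.003 Mb from Notch2 (GENCODE M21 on GRCm38). The tested members were 41 of the 179 tested genes within 5 Mb.

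CKO animals carried Hes5::CreERT2, a tamoxifen-inducible Cre recombinase expressed from Hes5, together with Notch2 flox/flox and the reporter Rosa26R-CAG::GFP. WT animals carried the same driver and reporter with Notch2 wt/wt. Both were adult C57BL/6 mice that received tamoxifen for 5 days, followed by 1 day of chase before GFP-positive hippocampal cells were sorted. Cells from several animals were pooled for each sample, and there were 3 CKO pools and 3 WT pools, each measured in 2 Smart-Seq2 libraries.

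Notch2 is a transmembrane receptor whose cleaved intracellular domain enters the nucleus and acts with Rbpj on target genes, and Notch signalling is known to keep adult hippocampal stem cells in a quiescent state. A floxed allele is present in every cell of the animal and is inherited together with the DNA on either side of it, whereas recombination by Cre takes place only where the driver is active. Neighbouring genes can therefore differ between a floxed and a wild-type line for reasons of linkage as well as of receptor function. The sources used here do not name the floxed exons or the strain in which the floxed allele was made, so linked sequence and loss of the receptor cannot be told apart in these pools.

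Reads in genes numbered 41810239 to 53984963 in CKO pools and 40366579 to 52682485 in WT pools. Reads outside annotated genes made up 20.3% to 35.3% in CKO pools and 16.0% to 25.8% in WT pools. Radial glial markers were abundant, with summed levels of 8657 to 12604 CPM (read counts scaled to library size) in CKO pools and 5539 to 10112 CPM in WT pools, but oligodendrocyte markers were too (2416 to 4728 CPM in CKO pools, 1763 to 5288 CPM in WT pools). Summed astrocyte markers stood higher still, at 15561 to 24655 CPM in CKO pools and 17239 to 19630 CPM in WT pools. The values thus describe the sorted cells as a whole. Microglial markers reached their highest sum in CKO pool 3 (332 CPM) and neuronal markers theirs in WT pool 1 (615 CPM). Of 10 marker lists, the genotypes were separated only for choroid plexus and ependyma, which lay near the detection limit (0.298 to 2.76 CPM in CKO pools, 0.198 to 0.291 CPM in WT pools) and of which Ttr, Folr1 and Foxj1 were at 0 in at least 1 pool. The part of cell composition in the values below was not tested. In bulk RNA, fewer cells of a type and less RNA per cell cannot be told apart.

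Several members are arranged head to head, with their starts close together on opposite strands. Between Scnm1 and Lysmd1 (77 bp) and between Polr3c and Rnf115 (36 bp), a single stretch of DNA lies in front of both genes. Wdr3 with Gdap2 and Riiad1 with Celf3 instead overlap at their starts, by 27 and 2047 bp. The stretch between Scnm1 and Lysmd1 is shown because Scnm1 was separated between the genotypes and Lysmd1 was not. It is printed 5′ to 3′ from the plus strand, as the RefSeq promoter window of Lysmd1 on GRCm38.p6 (chr3:95133838-95134137), with the 78 bases from the start of Scnm1 to that of Lysmd1 in capitals.
Scnm1-Lysmd1: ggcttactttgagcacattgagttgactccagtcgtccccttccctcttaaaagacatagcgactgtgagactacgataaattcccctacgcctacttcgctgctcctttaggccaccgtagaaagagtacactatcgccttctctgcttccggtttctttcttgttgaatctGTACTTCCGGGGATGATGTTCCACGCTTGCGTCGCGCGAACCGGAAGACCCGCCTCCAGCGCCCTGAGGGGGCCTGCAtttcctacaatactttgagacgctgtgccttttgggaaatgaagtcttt
The corresponding window of Wdr3 (chr3:100162358-100162657, minus strand) is shown because its value depended on the library. The starts of Wdr3 and Gdap2 overlap by 27 bases, in capitals.
Wdr3-Gdap2: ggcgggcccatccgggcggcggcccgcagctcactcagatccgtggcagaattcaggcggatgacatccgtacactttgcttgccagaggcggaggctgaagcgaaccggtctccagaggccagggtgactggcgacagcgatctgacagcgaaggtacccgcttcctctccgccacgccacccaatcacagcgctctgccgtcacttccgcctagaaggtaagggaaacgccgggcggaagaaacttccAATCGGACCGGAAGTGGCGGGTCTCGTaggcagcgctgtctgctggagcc
Pi4kb (chr3:94974481-94974780, plus strand) was among the members higher in all CKO pools and Phgdh (chr3:98339920-98340219, minus strand) among those lower in all CKO pools. Capitals mark the 50 bases after the RefSeq start, which for Phgdh lies 21 bp from the GENCODE start.
Pi4kb: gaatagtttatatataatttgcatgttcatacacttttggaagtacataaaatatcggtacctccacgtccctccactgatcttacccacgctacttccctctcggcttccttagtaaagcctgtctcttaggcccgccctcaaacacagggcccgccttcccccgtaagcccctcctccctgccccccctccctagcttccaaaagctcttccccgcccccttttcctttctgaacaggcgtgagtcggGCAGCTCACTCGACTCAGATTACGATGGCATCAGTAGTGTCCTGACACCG
Phgdh: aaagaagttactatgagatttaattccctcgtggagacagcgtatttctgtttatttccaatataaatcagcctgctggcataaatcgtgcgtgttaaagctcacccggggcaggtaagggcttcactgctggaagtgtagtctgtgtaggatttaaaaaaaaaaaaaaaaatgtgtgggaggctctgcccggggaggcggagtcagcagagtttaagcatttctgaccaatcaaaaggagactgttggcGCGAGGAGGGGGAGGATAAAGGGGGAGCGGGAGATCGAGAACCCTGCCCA

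RefSeq promoter windows of 300 bases were found for 34 of the 43 members. They were searched on both strands for TGGGAA, the core of sites bound by Rbpj, and 8 of 34 (23.5%) held it, against 25.0% of all 20554 promoters. These were the windows of Chd1l, Ecm1, Lysmd1, Polr3c, Rnf115, Sec22b, Setdb1 and Zfp697. The core of Ets sites, CCGGAA, was found in 13 (38.2%) against 17.8% of all promoters, and TATAAA in 6 (17.6%) against 13.2%. The 13 include Wdr3 with Gdap2 and Polr3c with Rnf115, pairs whose starts lie side by side. A single match can thus be counted for both genes of a pair. The windows of members held a median of 18.5 CpG dinucleotides, against 11 in all promoters. Their median GC content was 59.3%, against 55.0%. TGGGAA and CCGGAA share their last 4 letters, but no stretch matches both in full. A match describes the sequence and is no sign of binding.

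Levels of the members spanned a wide range. The median member stood at a mean of 24.7 CPM over the 6 pools, against 10.1 CPM for all tested genes and 20.02 CPM for tested protein-coding genes. Per kilobase of exon, Phgdh was the most abundant at 68.5 CPM per kb, followed by Ensa at 31.7, Sec22b at 24.4 and Scnm1 at 23.97 CPM per kb. At the other end stood Tuft1, Casq2 and Tbx15, at 0.210, 0.116 and 0.0707 CPM per kb. Casq2, a calcium-binding protein of muscle, and Tbx15, a T-box factor of mesenchyme, were the members that did not pass the filter. Casq2 had 39, 5 and 5 reads in CKO pools 1 to 3 and 5, 3 and 32 in WT pools 1 to 3, and Tbx15 had 1, 41 and 8 in CKO pools and 25, 0 and 0 in WT pools.

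Members lay on both sides of no difference. Of the 41 tested members, 22 had a log2 fold change (CKO over WT) above 0 and 19 below 0, where 52.8% of all genes were below 0, and the median was 0.10, against -0.059 for all genes. That median was -0.066 without WT pool 3 and -0.011 without CKO pool 1. For 5 members every CKO pool was higher than every WT pool, where 7.67% of all genes were, and for 5 every CKO pool was lower, where 8.17% of all genes were. In edgeR's quasi-likelihood test, 10 members (24.4%) had an unadjusted p under 0.05, 5 in each direction, against 5.91% of all genes (3.01% higher and 2.90% lower). Since the list was made with such differences in view, nothing is read from these shares. No gene of the 21477 tested passed after Benjamini-Hochberg adjustment in edgeR, where adjusted p started at 0.790, while DESeq2 called 124 genes (0.577%), among them Riiad1, Scnm1, Pi4kb, Vangl1 and Gm42819.

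**Figure D1:**
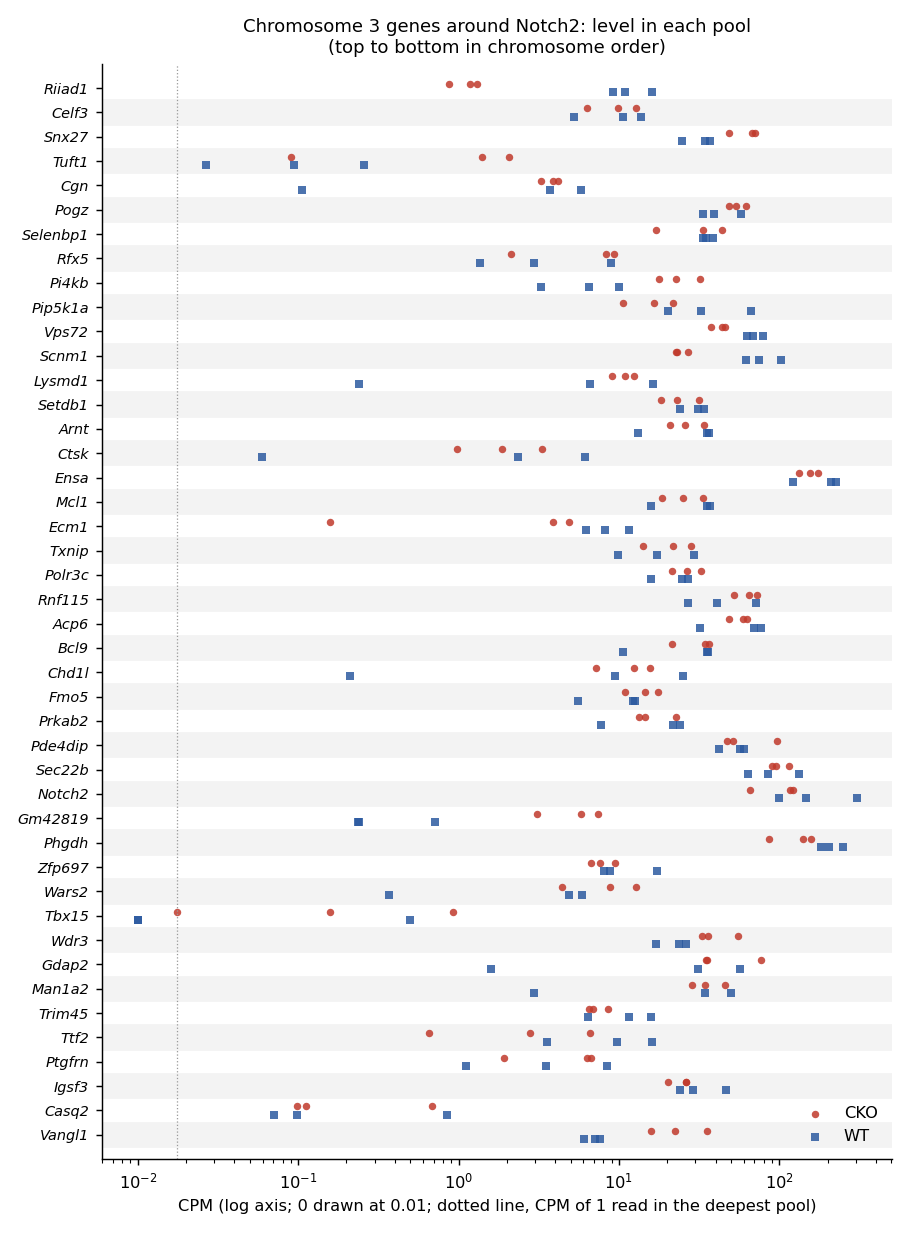
CPM (log axis) of the 43 genes and Notch2 in each of the 6 pools, 1 gene per line in chromosome order, with CKO pools (circles) drawn above WT pools (squares). Riiad1, Scnm1, Vps72, Ecm1 and Phgdh lie lower in every CKO pool than in any WT pool, and Gm42819, Pi4kb, Vangl1, Snx27 and Wdr3 lie higher, while all other genes overlap.

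Of 6 genes of membrane lipids and traffic, Pi4kb and Snx27 were higher in every CKO pool, where 7.67% of all genes were, and none was lower in every CKO pool. Pi4kb (94974731 to 95006843, plus strand, 3.01 Mb before Notch2) makes phosphatidylinositol 4-phosphate at the Golgi. It stood at 32.2, 17.8 and 22.6 CPM in CKO pools 1 to 3 and at 9.97, 6.49 and 3.28 CPM in WT pools 1 to 3. All CKO pools thus lay above all WT pools, with means of 24.2 ± 7.36 CPM in CKO and 6.58 ± 3.34 CPM in WT (SD, n = 3 pools each) and a log2 fold change of 1.88 (SE 0.53). It was 2.83 in library 1 and 1.44 in library 2. Pi4kb overlaps the antisense genes A730011C13Rik and Gm15265 and the last 254 bases of Zfp687, and the libraries do not mark strand, so reads of these genes cannot be told apart in the overlaps.

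Snx27 (94497544 to 94582716, minus strand), a sorting nexin that returns receptors from endosomes to the cell surface with the retromer, was at 67.2, 70.2 and 48.7 CPM in CKO pools and 34.6, 37.0 and 24.8 CPM in WT pools. The lowest CKO pool exceeded the highest WT pool, and the log2 fold change was 0.95 (SE 0.30). It was 0.37 in library 1 and 1.45 in library 2, where WT pool 3 held only 71 reads, against 866 in its library 1. Pip5k1a makes the phosphatidylinositol bisphosphate of the plasma membrane and stood on the other side, at 16.6, 21.6 and 10.6 CPM in CKO pools and 32.6, 20.4 and 66.1 CPM in WT pools. CKO pool 2 overlapped WT pool 2, and the log2 fold change of -1.28 (SE 0.52) was -0.71 without WT pool 3. Pip5k1a was picked out after its values were seen.

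The other members of this role did not separate. Sec22b, a SNARE protein of transport between the endoplasmic reticulum and the Golgi, is the nearest protein-coding member before Notch2 (0.0903 Mb). It was at 95.7, 90.3 and 115 CPM in CKO pools and 132, 85.3 and 64.0 CPM in WT pools (log2 fold change 0.10, SE 0.31). Acp6, a phosphatase of lysophosphatidic acid, was at 48.3, 62.8 and 59.2 CPM in CKO pools and 32.0, 76.6 and 69.8 CPM in WT pools (-0.07, SE 0.37). In both, the CKO pools lay within the spread of the WT pools. Man1a2, a Golgi mannosidase, had a log2 fold change of 0.31 (SE 0.84) and was at 2.94 CPM in WT pool 3, against 34.5 and 50.1 CPM in the other WT pools.

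RNA processing held members that separated in both directions, where 7.67% of all genes were higher in every CKO pool and 8.17% lower. Scnm1 (95129536 to 95134011, minus strand, 2.88 Mb before Notch2) encodes a splicing protein first identified in mice as a strain-dependent modifier of a sodium channel mutation. It was at 23.1, 27.1 and 22.6 CPM in CKO pools and 102, 74.8 and 62.0 CPM in WT pools. The CKO pools lay close together at about the same level, and the lowest WT pool was above all of them. Means were 24.3 ± 2.45 CPM in CKO and 79.5 ± 20.3 CPM in WT (SD, n = 3 pools each), a log2 fold change of -1.71 (SE 0.29). The difference was present in library 1 (-2.09) and in library 2 (-1.24).

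Lysmd1, a LysM-domain gene that starts 77 bp from Scnm1 across the capitals printed above, did not follow it. It stood at 9.05, 10.97 and 12.4 CPM in CKO pools and 6.63, 16.3 and 0.238 CPM in WT pools. The CKO pools fell inside the range of the WT pools, the lower end of which was 9 reads in WT pool 3. They also lay between WT pools 1 and 2. Its log2 fold change of 0.48 (SE 1.13) was -0.09 without WT pool 3 and 1.74 without WT pool 2. Lysmd1, Gdap2, Celf3, Polr3c and Rnf115 are named as the head-to-head partners of other members, chosen after their values were seen.

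Wdr3 (100138180 to 100162407, minus strand, 1.99 Mb after Notch2) encodes a nucleolar protein needed to process the RNA of the small ribosomal subunit. It was at 35.8, 55.1 and 32.8 CPM in CKO pools and 26.1, 17.01 and 23.7 CPM in WT pools, without overlap, and the log2 fold change was 0.89 (SE 0.35). This separation came from a single library. In library 1 it had 929, 2175 and 580 reads in CKO pools and 47, 71 and 21 reads in WT pools, a log2 fold change of 4.69. Library 2 gave 1112, 281 and 1087 reads in CKO pools and 1270, 650 and 872 reads in WT pools, and the log2 fold change there was -0.47. The direction was thus opposite in the libraries of the same pools. Its partner Gdap2, named for its induction by gangliosides during neuronal differentiation, was at 35.2, 76.6 and 34.7 CPM in CKO pools and 56.9, 31.3 and 1.59 CPM in WT pools. The genotypes overlapped, and its log2 fold change of 0.71 (SE 1.01) was 0.14 without WT pool 3.

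Of the other RNA genes, Wars2, the mitochondrial tryptophanyl-tRNA synthetase, had a log2 fold change of 1.22 (SE 0.97), with 0.371 CPM in WT pool 3. Celf3, a splicing regulator of neurons, was at 12.7, 6.35 and 9.87 CPM in CKO pools and 10.7, 5.24 and 13.7 CPM in WT pools (-0.03, SE 0.54), with full overlap. Its start region overlaps that of Riiad1 by 2047 bp, of which 74 bp are exonic in both.

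Riiad1 (94464983 to 94480341, minus strand, 3.53 Mb before Notch2) had the lowest log2 fold change of all members and is the outermost member on its side. It encodes a small protein with the dimerization domain of protein kinase A regulatory subunits, and its cellular role is not well known. It stood at 0.877, 1.30 and 1.18 CPM in CKO pools and 10.9, 9.20 and 16.0 CPM in WT pools. In reads these were 50, 58 and 60 in CKO pools against 552, 390 and 604 in WT pools, well over the 3 reads taken as the detection floor. Each WT pool lay far above all CKO pools, the means being 1.12 ± 0.218 CPM in CKO and 12.04 ± 3.53 CPM in WT (SD, n = 3 pools each). The log2 fold change was -3.42 (SE 0.56), with -4.23 in library 1 and -2.66 in library 2, and it stayed between -3.54 and -3.17 when any pool was left out. Celf3, its head-to-head partner, overlapped between genotypes as given above.

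**Figure D2:**
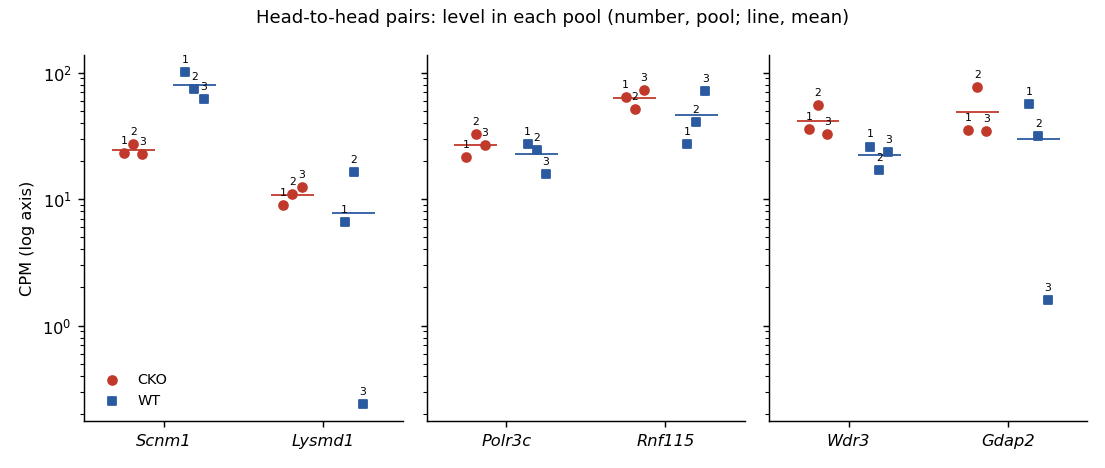
CPM (log axis) in each numbered pool for the pairs Scnm1 and Lysmd1, Polr3c and Rnf115, and Wdr3 and Gdap2, with CKO pools left of WT pools and a line at each mean (n = 3 pools). Scnm1 is lower in every CKO pool than in any WT pool while its partner overlaps, and Lysmd1 and Gdap2 are lowest in WT pool 3.

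The pair Polr3c and Rnf115 starts 36 bp apart. Polr3c, a subunit of RNA polymerase III, was at 21.4, 32.6 and 26.6 CPM in CKO pools and 27.1, 24.7 and 15.9 CPM in WT pools (log2 fold change 0.25, SE 0.36). Rnf115, a ubiquitin ligase of vesicle traffic, was at 64.7, 51.8 and 72.9 CPM in CKO pools and 27.1, 41.0 and 71.1 CPM in WT pools (0.44, SE 0.39). Both overlapped between genotypes. Trim45, the other ubiquitin ligase, had a log2 fold change of -0.62 (SE 0.51).

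Genes of metabolism, redox control and survival were led by Phgdh (98313170 to 98339990, minus strand), the first enzyme of serine synthesis, which is abundant in astroglia. It is also the nearest protein-coding member after Notch2, at 0.163 Mb. Phgdh stood at 159, 86.1 and 141 CPM in CKO pools and 204, 249 and 183 CPM in WT pools. The highest CKO pool was below the lowest WT pool, with means of 129 ± 37.9 CPM in CKO and 212 ± 33.8 CPM in WT (SD, n = 3 pools each). The log2 fold change was -0.72 (SE 0.28), and -0.50 without CKO pool 2. It was -0.86 in library 1 and -0.60 in library 2. Astrocyte markers, summed over their list, did not separate (15561 to 24655 CPM in CKO pools, 17239 to 19630 CPM in WT pools).

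The other 4 genes of this role overlapped between genotypes. Mcl1, an inhibitor of apoptosis, was at -0.19 (SE 0.43) on the log2 scale, Selenbp1, a selenium-binding methanethiol oxidase, at -0.18 (SE 0.39), Txnip, the inhibitor of thioredoxin, at 0.18 (SE 0.50) and Fmo5, a flavin monooxygenase, at 0.49 (SE 0.49). Txnip overlaps the antisense gene Gm15441, which stood at 1.33, 0.718 and 0.393 CPM in CKO pools and 0.0593, 0.189 and 0 CPM in WT pools, where 3 reads are 0.0593 to 0.0795 CPM. The reads of the pair cannot be told apart where they overlap. Summed over all 5 genes, the role stood at 249.98, 153 and 261 CPM in CKO pools and 309, 330 and 279 CPM in WT pools, a separation carried by Phgdh, the most abundant of them.

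Of 10 tested chromatin and transcription genes, 5 lay above 0 and 5 below 0. Only Vps72 separated (10%), where 15.8% of all genes did. Vps72 (95111022 to 95123051, plus strand, 2.89 Mb before Notch2) is a subunit of complexes that place the histone variant H2A.Z in chromatin. It was at 44.1, 37.3 and 46.1 CPM in CKO pools and 63.2, 68.5 and 78.6 CPM in WT pools, each WT pool above each CKO pool. Means were 42.5 ± 4.64 CPM in CKO and 70.1 ± 7.84 CPM in WT (SD, n = 3 pools each), and the log2 fold change of -0.72 (SE 0.24) was close in library 1 (-0.78) and library 2 (-0.67). Among the members it had the smallest spread within genotypes, with a pooled SD of 0.158 on the log2(CPM + 1) scale against a median of 0.513 over members and 0.507 over all genes.

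The other chromatin genes ranged in log2 fold change from -1.55 (SE 0.94) for Ttf2, which releases transcripts from RNA polymerase, to 0.58 (SE 0.89) for Rfx5, a factor of MHC class II genes. Both ends moved in either direction when single pools were left out. Ttf2 was at -2.46 without CKO pool 3 and -0.98 without WT pool 3, and differed between library 1 (-0.03) and library 2 (-2.55). Rfx5 was at 1.68 without WT pool 2 and 0.15 without WT pool 3. Pogz, a heterochromatin-associated zinc finger protein, was at 0.33 (SE 0.30), Setdb1, a histone H3 methyltransferase, at -0.29 (SE 0.35) and Bcl9, a co-activator of beta-catenin, at 0.17 (SE 0.51). None of these separated. Arnt, the dimer partner of hypoxia-inducible factors, was at -0.07 (SE 0.46) and the zinc finger gene Zfp697 at -0.52 (SE 0.50). Chd1l, a chromatin remodeller of DNA repair, was at 15.5, 7.16 and 12.4 CPM in CKO pools and 9.51, 25.0 and 0.212 CPM in WT pools, so its log2 fold change of 0.02 (SE 1.22) was -0.56 without WT pool 3 and 1.36 without WT pool 2.

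Surface, junction and matrix genes were led by Vangl1 (102153583 to 102204693, minus strand, 4.003 Mb after Notch2), a membrane protein of planar cell polarity and the outermost member on that side. It was at 22.3, 15.9 and 35.4 CPM in CKO pools and 7.14, 7.60 and 6.07 CPM in WT pools. The WT pools lay close together and below every CKO pool, with means of 24.6 ± 9.95 CPM in CKO and 6.94 ± 0.787 CPM in WT (SD, n = 3 pools each). The log2 fold change was 1.82 (SE 0.45), with 2.86 in library 1 and 1.29 in library 2. In library 1 WT pool 3 had 8 reads of Vangl1, and in library 2 it had 221.

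Ecm1, a secreted glycoprotein of the extracellular matrix, also separated, at 4.89, 3.86 and 0.157 CPM in CKO pools and 6.23, 11.5 and 8.19 CPM in WT pools, but its log2 fold change of -1.54 (SE 1.06) was -0.95 without CKO pool 3. Its libraries differed within pools. CKO pool 2 had 170 reads in library 1 and 2 in library 2, and WT pool 3 had 0 and 309. Tuft1, a gene first described in tooth enamel, had 80, 4 and 105 reads in CKO pools and 13, 4 and 1 in WT pools, too few for more than this description. Cgn, a tight junction protein, Ptgfrn and Igsf3, both immunoglobulin-domain proteins, and Ctsk, a collagen-degrading protease, overlapped, with log2 fold changes of 0.23 (SE 1.14), 0.19 (SE 0.87), -0.45 (SE 0.36) and -0.47 (SE 1.32).

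Kinase and phosphatase regulators did not separate, where 15.8% of all genes did. Ensa, which when phosphorylated inhibits the phosphatase PP2A, was at 133, 173 and 156 CPM in CKO pools and 225, 121 and 210 CPM in WT pools (log2 fold change -0.27, SE 0.28). Pde4dip, an anchor of a phosphodiesterase at the Golgi and centrosome, was at 97.3, 47.1 and 51.2 CPM in CKO pools and 42.3, 57.1 and 60.0 CPM in WT pools (0.30, SE 0.35). CKO pool 1 was the highest for Pde4dip, and without it the value was -0.10. Prkab2, a subunit of the energy sensor AMPK, was at -0.08 (SE 0.52).

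Gm42819 is a predicted locus without a known product that GENCODE places inside Notch2 on the same strand (98030687 to 98035807). It lies in the 33956 bp between exon blocks 1 and 2 of 34 and shares no exonic base with Notch2. It stood at 3.11, 5.79 and 7.42 CPM in CKO pools and 0.237, 0.708 and 0.238 CPM in WT pools, so that every CKO pool was above every WT pool. The means were 5.44 ± 2.18 CPM in CKO and 0.395 ± 0.271 CPM in WT (SD, n = 3 pools each) and the log2 fold change was 3.78 (SE 0.84). The reads of each CKO pool came almost wholly from a single library. CKO pools 1, 2 and 3 had 11, 253 and 8 reads in library 1 and 166, 5 and 369 in library 2, whereas WT pools 1, 2 and 3 had 2, 17 and 3 in library 1 and 10, 13 and 6 in library 2. Thus a different library was the high one in CKO pool 2 from that in CKO pools 1 and 3.

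Gm42819 went opposite to the gene that surrounds it. Notch2 (98013527 to 98150361, plus strand) was at 65.3, 116 and 121 CPM in CKO pools and 99.3, 146 and 303 CPM in WT pools, with overlap, a log2 fold change of -0.86 (SE 0.45) and an exact permutation p of 0.3 (two-sided, smallest possible 0.1, 3 against 3 pools). Without WT pool 3 its value was -0.29. Counts were given for the whole gene only, so how far they follow the recombined exons was not tested. Gm42820, a further locus inside Notch2 that shares 541 exonic bp with it, was at 0.08 (SE 0.98). Whether reads of Gm42819 came from Notch2 transcripts was not tested, and the share of reads outside annotated genes overlapped between genotypes as given above.

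Within single libraries the picture was narrower. Riiad1, Scnm1 and Phgdh were the members for which all 6 CKO libraries were lower than all 6 WT libraries, where 0.321% of all genes were, and for no member were all CKO libraries higher, where 0.414% of all genes were. Riiad1 had 0.504 to 1.67 CPM in CKO libraries and 4.35 to 23.5 CPM in WT libraries. Scnm1 had 19.8 to 32.0 CPM in CKO libraries and 40.8 to 130 CPM in WT libraries. For Phgdh the ranges were 77.8 to 161 CPM in CKO libraries and 191 to 287 CPM in WT libraries. The libraries of a pool share its cells, so these are 3 pools a genotype measured again and not 6 replicates. This count was added after the values of the pools had been seen. With members chosen partly on the same contrast, nothing is read from it beside the shares of all genes. For Pi4kb 1 CKO library, and for Vangl1 2 CKO libraries, fell within the range of the WT libraries (15.1 to 36.8 CPM in CKO and 1.46 to 15.8 CPM in WT libraries for Pi4kb, 5.55 to 46.9 CPM in CKO and 0.526 to 10.96 CPM in WT libraries for Vangl1).

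**Figure D3:**
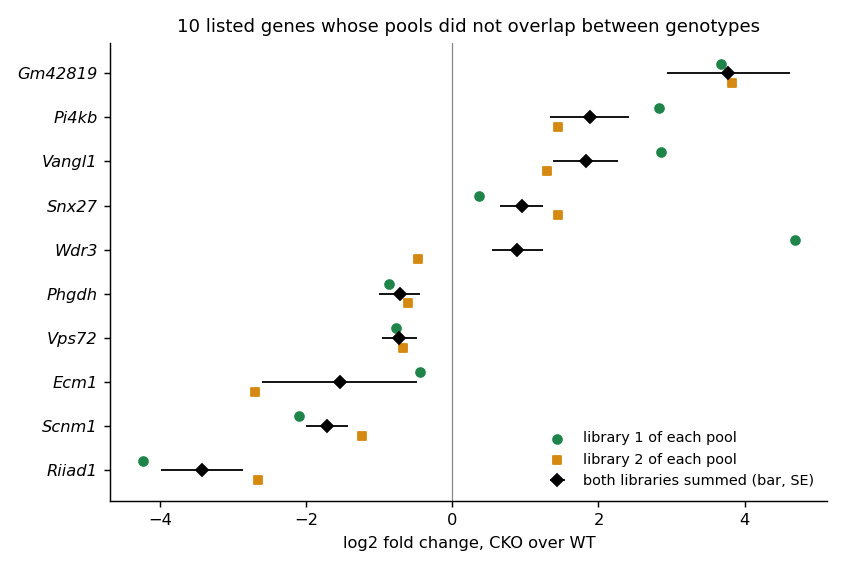
Log2 fold change (CKO over WT, x axis) of the 10 members whose pools did not overlap, in library 1 (circles), in library 2 (squares) and with both summed (diamonds, bar SE). Riiad1, Scnm1, Ecm1, Vps72 and Phgdh are below 0 in both libraries, and Gm42819, Pi4kb, Vangl1 and Snx27 are above 0 in both. Wdr3 is at 4.69 in library 1 and -0.47 in library 2.

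The contrast of the libraries themselves did not enter the choice of the members. Libraries are numbered as in the sample titles, and whether equal numbers share a preparation across pools was not tested. With the pool as a block, 0 of 40 members and 0 of 18267 genes differed between library 2 and library 1 after adjustment in edgeR, where the smallest adjusted p of a member was 0.205. Unadjusted, 4 members (10%) had a p under 0.05, against 14.4% of all genes. DESeq2 called the same 4 members, and 11.4% of all genes. Celf3, Rfx5 and Pde4dip were higher in library 2, with edgeR log2 fold changes (library 2 over library 1) of 2.79 (SE 0.76), 1.83 (SE 0.52) and 1.34 (SE 0.46), and Ptgfrn was lower, at -1.55 (SE 0.46). A member with at least 100 reads in a library of a pool had 3 reads or fewer in the other in 5 of 218 cases (2.29%), against 2.64% over all genes.

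WT pool 3 was the lowest of the 6 pools for 17 of 41 members (41.5%), against 28.8% of all genes, and the highest for 10 (24.4%), against 24.5% of all genes. CKO pool 1 was the lowest for 1 member (2.44%), against 12.9% of all genes. WT pool 3 had the fewest reads in genes (40366579). It also had the most unaligned reads, at 21.7% against 11.2% to 15.8% in the other pools. Their part in these values was not tested. Lysmd1, Gdap2, Chd1l, Man1a2, Wars2 and Cgn were all at their lowest in WT pool 3, and the first 4 of these had the largest spread within genotypes of all members.

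By position, members that separated stood on both sides of Notch2, mixed with members that did not. Of the 29 tested members before Notch2, 2 were higher and 4 lower in every CKO pool, and of the 11 after it, 2 were higher and 1 lower, where 7.67% of all genes were higher and 8.17% lower. With members chosen as they were, nothing is read from these counts. Vps72 and Scnm1, both lower in CKO pools, lie at 2.89 and 2.88 Mb, and Pi4kb, which was higher, lies close by at 3.01 Mb. The outermost members were Riiad1 and Vangl1. Next outwards from Riiad1 among tested protein-coding genes came Mrpl9, a mitochondrial ribosomal protein, at 35.8, 37.0 and 27.7 CPM in CKO pools and 41.8, 39.1 and 75.3 CPM in WT pools (log2 fold change -0.64).

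**Figure D4:**
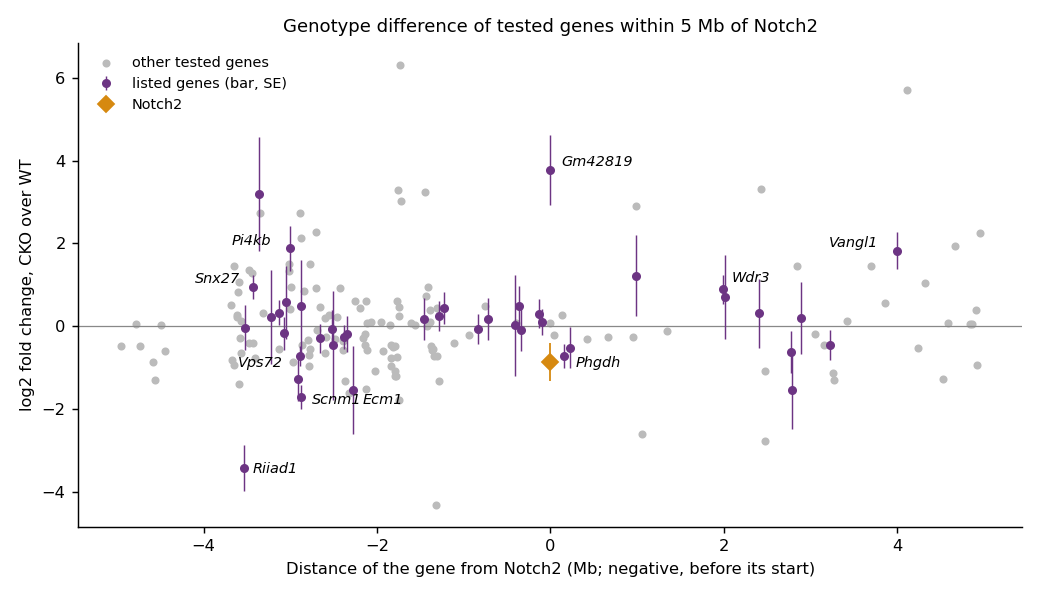
Log2 fold change (CKO over WT) of tested genes around Notch2 (y axis) against distance from Notch2 in Mb (x axis, 0 at Notch2), with members in purple (bar, SE), Notch2 in orange and the other genes in grey. Values above and below 0 stand side by side along the whole span, and Riiad1 (-3.42) and Vangl1 (1.82) are the outermost members.

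The genes of the same region that were not on the list are those left after members had been selected partly on this contrast, so their shares are a description and no independent comparison. Of the 138 other tested genes within 5 Mb, Notch2 among them, 11 (7.97%) had an unadjusted p under 0.05 and 26 (18.8%) did not overlap between genotypes, 10 higher and 16 lower in CKO. Among the 72 protein-coding genes of these, leaving out Notch2, 4 (5.56%) had an unadjusted p under 0.05. The shares in all genes were 5.91% and 15.8%. Taking members and other genes together by distance, and leaving out Notch2, 9.52% of 21 genes within 1 Mb had an unadjusted p under 0.05, 14.7% of 68 genes at 1 to 2.5 Mb, 10.1% of 89 genes at 2.5 to 5 Mb and 8.74% of 206 genes at 5 to 10 Mb. At 10 to 20 Mb it was 5.15% of 136 genes, beyond that on chromosome 3 6.17% of 664, and on other chromosomes 5.82% of 19527. The first 3 classes hold members chosen with results in view, and the class at 5 to 10 Mb holds none. Within 1 Mb, the genes at an unadjusted p under 0.05 were the members Gm42819 and Phgdh. In the same order of classes, the share without overlap between genotypes was 9.52%, 22.1%, 21.3%, 22.8%, 16.2%, 17.9% and, on other chromosomes, 15.7%.

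**Figure D5:**
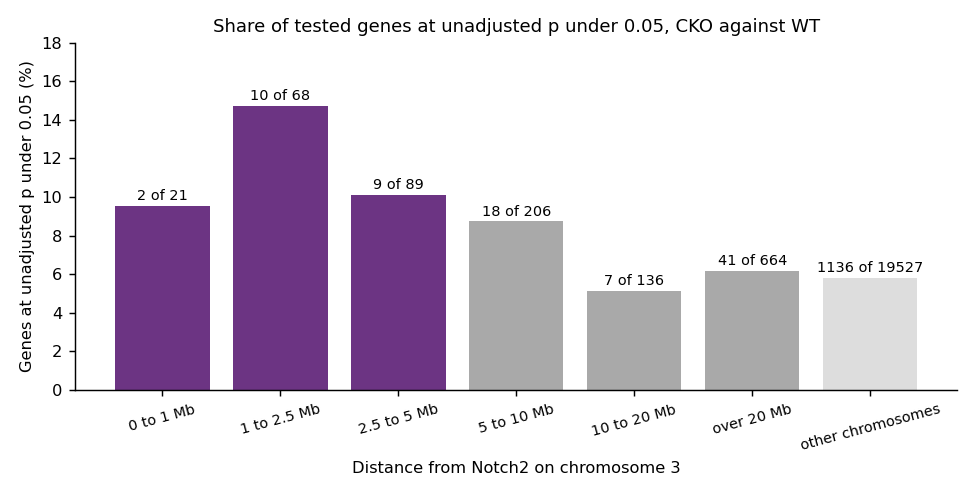
Share of tested genes with an unadjusted p under 0.05 (edgeR, CKO over WT) by distance from Notch2. Shares are 9.52% to 14.7% in the classes up to 5 Mb, which contain members, 8.74% at 5 to 10 Mb and 5.15% to 6.17% farther away and on other chromosomes.

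Cers2, Psmd4 and Psmb4 were among the most abundant protein-coding genes of the region outside the list. Cers2, a ceramide synthase of long-chain sphingolipids, was at 226, 190.5 and 219 CPM in CKO pools and 173, 252 and 250.2 CPM in WT pools (log2 fold change -0.09, SE 0.22). Psmd4 and Psmb4, subunits of the proteasome, were lower in every CKO pool. Psmd4 was at 123, 141 and 148 CPM in CKO pools and 384, 212 and 158 CPM in WT pools (-0.87, SE 0.34), and Psmb4 at 104, 108 and 117 CPM in CKO pools and 223, 123 and 140 CPM in WT pools (-0.56, SE 0.27). For both, WT pool 1 was far above the other pools, and without it the values were -0.42 and -0.25.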

How the data were processed

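The authors deposited 24 tables of unnormalized gene counts. Bowtie2, HTSeq and GRCm38 are named per the submitters' processing notes, with versions, annotation and strand setting not given in the sources used here. Nextera XT libraries do not mark strand. Each table had 5 summary lines, kept out of library sizes. Reads with several alignments were listed at 0, so close copies may share reads. Counts of the lanes of each library agreed within sampling noise (chi-square over degrees of freedom 0.986 to 1.01, smallest p = 0.149 over 12 libraries) and were summed, as were the 2 libraries of a pool, which gave 3 CKO and 3 WT pools. The labels do not say that pools share no animal, so p-values cover only the spread seen among them.

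Both contrasts were fitted over all genes in R 4.3.3, the genotypes with edgeR 4.0.16 (filterByExpr, TMM, quasi-likelihood test, Benjamini-Hochberg adjustment, threshold 0.05), and library 2 with library 1 over 12 libraries with the pool as a block. Alternatives included DESeq2 1.42.0 and limma-voom 3.58.1. CPM are counts over TMM-adjusted library sizes, where 1 read is 0.0175 to 0.0265 CPM. Reads carry no molecular identifiers, so depth bears on counting error only, and the common biological coefficient of variation between pools was 0.725. The fits were tested on simulated data. Symbols of 96.2% of tested genes were found in GENCODE M21 on GRCm38, which gave positions, and promoters are RefSeq windows on GRCm38.p6, 250 bases before to 50 after a start.

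The members, the role and marker lists and the naming rule were chosen with earlier results of these data known. The rule named Notch2, the members with the largest log2 fold changes among those without overlap and a mean log2 CPM of at least 1, the 6 members with the highest mean CPM, the nearest member on each side and the 4 most abundant other protein-coding genes of the window. Members outside it were named after their values were seen. Some genes of the region are not reported here.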

Additional observations from a re-analysis of the deposited data

Results flagged for a closer look

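In 7 of the 42 genes examined (the tested members and Notch2), given as a description, the difference between the libraries of a pool, as log2(CPM + 1) in library 2 minus library 1, stood apart in a single pool from the other 5 by Dixon's criterion, which chance meets in about 1 in 20 genes. Over all 21477 tested genes the same criterion was met in 12.1%, against 16.7% of these 42. In 6 of the 7 it was WT pool 3, which also held 61.4% of such genes over all tested. Igsf3, an immunoglobulin-domain gene, stood at 5.07 there, with 1728 reads in library 2 and 24 in library 1. Setdb1, the histone methyltransferase, stood at 4.22 (1243 and 36 reads), Zfp697 at 3.68 (629 and 23 reads) and Ensa, the phosphatase inhibitor, at 2.46 (6981 and 944 reads). The opposite held for Snx27, at -3.68 (71 reads in library 2 and 866 in library 1), and Polr3c, at -2.86 (78 and 522 reads). Pi4kb, the Golgi lipid kinase, stood apart in WT pool 1, at 2.77 (470 reads in library 2 and 34 in library 1). The cause was not tested.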

How the results depend on the processing

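No gene passed in edgeR with either scaling, without a filter, with the replicate block, in limma-voom, in a library alone or without any pool, while DESeq2 called 124 genes and 5 members. Of the members, 18 kept the sign of their log2 fold change under each of 13 alternatives (11 for Tuft1, which could not be fitted in a library alone) and 23 changed it under at least 1. The count of members at an unadjusted p under 0.05 and higher in CKO was 5, and 2 with library 2 alone, and it ranged from 3 to 6 when a pool was left out. The count of those lower was 5, and 2 with library 1 alone, 3 with library 2 alone and 2 to 4 when a pool was left out. In the main fit, 3.01% of all genes were higher and 2.90% lower at this p, and shares under the alternatives are not given. The list was made with such differences in view, so nothing is read from the counts of members in this section. The median log2 fold change of 0.10 was -0.12 with library 2 alone and -0.066 (without WT pool 3) to 0.20 when a pool was left out. With the replicate block, 2 members were lower, 4 were higher and the median was 0.24, beside a shift of 0.11 in the median of all genes. Deviations of pools with the same number had correlations of 0.024, -0.010 and -0.030, beside -0.057 to 0.051 for pools with different numbers. With 3 pools a genotype, these cannot show whether the number marks a pairing, and the labels do not state one. Between libraries, 6 genes passed in edgeR without a filter, and DESeq2 called 2076 genes and 4 members. Within 5 Mb the median was 0.0078, within 2.5 Mb -0.10 and within 10 Mb -0.13, with 11.7%, 13.3% and 10.1% of genes at an unadjusted p under 0.05. These causes were not tested. For Tuft1, a member with few reads, the libraries of CKO pool 1 had 78 and 2 reads.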

Other observations

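Some genes of the same region that were not on the list, picked out after their values were seen, were further from even than most members. A230001M10Rik, a long non-coding RNA 4.11 Mb after Notch2, stood at 2.56, 4.28 and 1.495 CPM in CKO pools and 0.0989, 0.0236 and 0.0265 CPM in WT pools. All CKO pools were thus above all WT pools, of which WT pools 2 and 3 were below the level of 3 reads (0.0708 and 0.0795 CPM). Fcgr1, an immunoglobulin receptor of myeloid cells, was at 2.19, 1.77 and 2.68 CPM in CKO pools and 0.593, 0.0472 and 0.159 CPM in WT pools (log2 fold change 3.03, SE 1.08), also without overlap, and the value was 4.41 without WT pool 1. Summed microglial markers overlapped between genotypes (89.2 to 332 CPM in CKO pools, 113 to 188 CPM in WT pools), and their part in it was not tested. Bola1, a mitochondrial protein of iron-sulfur cluster assembly, was lower, at 22.4, 27.4 and 28.4 CPM in CKO pools and 99.1, 45.6 and 34.6 CPM in WT pools (-1.20, SE 0.43), and -0.61 without WT pool 1. Ankrd35, an ankyrin-repeat gene, was at 0.368, 1.35 and 0 CPM in CKO pools and 2.63, 3.73 and 27.8 CPM in WT pools (-4.32, SE 1.72), and -2.49 without WT pool 3. None of these passed after adjustment in edgeR, where the smallest adjusted p of all genes was 0.790.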
